A study of Mus musculus with 3 samples.

Results

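The cells described here, called *Tnfsf11*/*Comp* cells, were selected on the measured levels of a few genes in a single-cell RNA-sequencing table of mouse ovary. A cell belonged to them when *Tnfsf11* was detected, the deposited value of *Comp* was at least 1, the values of *Dcn* and *Cyp17a1* were each under 2, *Ptprc* and *Pecam1* were at 0, and fewer than 3 of the 6 mitotic genes *Top2a*, *Mki67*, *Ube2c*, *Birc5*, *Ccnb2* and *Cenpf* were detected. A deposited value is the natural log of 1 plus the number of UMIs (counted transcripts) a gene had for every 10000 in that cell, so that a value of 1 stands for 1.72 and a value of 2 for 6.39 UMIs per 10000. In all, 799 of 31776 cells met the rule, or 2.51% (95% Clopper-Pearson interval 2.35 to 2.69). Their values of *Tnfsf11* and *Comp* were used to find them and are given below as a description only.

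Ovaries were taken 0, 1 and 6 h after hCG, which stands in for the ovulatory LH surge, and 1 library on the 10x Genomics platform was made for each time point. The study's methods describe Kunming mice of 21 days, 48 h after PMSG, which drives follicle growth much as FSH does. Which of the libraries this text covers, and the number of animals behind each, are not stated. The cell barcodes end in 1, 2 or 3, no source ties an ending to a time point, and the cells of each ending are therefore called barcode sets 1, 2 and 3 without a time. The sets held 10384, 9917 and 11475 cells with medians of 6093, 6352 and 6524 UMIs, and each pair of sets shared 27 to 46 barcodes, among them those of 5 *Tnfsf11*/*Comp* cells. Without replicate libraries no test was possible. Levels are means over cells of the UMIs per 10000 UMIs, and the ranges in parentheses are 95% intervals that cover counting error only, not the spread between animals or libraries. Those of levels and ratios rest on summed UMIs and leave out the spread between cells as well, so they are narrower than intervals over cells would be.

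Granulosa cells (GCs) line the ovarian follicle, and the mural GCs along its wall acquire the LH receptor as the follicle matures. *Tnfsf11* encodes RANKL, a ligand of the TNF superfamily best known from bone, where it binds the receptor RANK (*Tnfrsf11a*) on osteoclast precursors and is held back by the decoy receptor osteoprotegerin (*Tnfrsf11b*). *Comp* encodes cartilage oligomeric matrix protein, a secreted thrombospondin that binds collagens. *Rhox8* is a homeobox gene of the X-linked Rhox cluster with known expression in gonadal somatic cells, and *Flrt3* encodes a membrane protein of cell adhesion and guidance. In build GRCm38.p6, *Tnfsf11* lies on chromosome 14 at 78277446 to 78308043, *Comp* on chromosome 8 at 70373548 to 70382066, *Rhox8* on chromosome X at 37874780 to 37890766 and *Flrt3* on chromosome 2 at 140658198 to 140671476.

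The 250 bases before the RefSeq start of 4 genes are shown because the results turn on them: *Tnfsf11* chose the cells, *Lhcgr* (the LH receptor) and *Nppc* (C-type natriuretic peptide, which keeps the oocyte in meiotic arrest) mark mural GCs, and *Areg* (amphiregulin) was among the genes of largest difference between barcode sets. The sequences are from build GRCm38.p6, 5′ to 3′ on the gene's strand. Capitals mark the letters TATAAA, and TGACGTCA, a palindrome known as the cyclic AMP response element, searched on both strands. The matches do not overlap each other. The windows lie at chr14:78308044-78308293 (minus strand), chr17:88792015-88792264 (minus), chr1:86670574-86670823 (minus) and chr5:91139349-91139598 (plus), in the order given. The start used for *Lhcgr* lies inside the gene as placed at 88716384 to 88792059, so its window overlaps the gene.
Tnfsf11: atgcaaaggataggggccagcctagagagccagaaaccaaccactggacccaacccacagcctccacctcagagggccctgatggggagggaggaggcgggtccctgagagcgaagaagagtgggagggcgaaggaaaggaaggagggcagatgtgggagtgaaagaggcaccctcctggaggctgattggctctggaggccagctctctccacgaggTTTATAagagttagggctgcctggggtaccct
Lhcgr: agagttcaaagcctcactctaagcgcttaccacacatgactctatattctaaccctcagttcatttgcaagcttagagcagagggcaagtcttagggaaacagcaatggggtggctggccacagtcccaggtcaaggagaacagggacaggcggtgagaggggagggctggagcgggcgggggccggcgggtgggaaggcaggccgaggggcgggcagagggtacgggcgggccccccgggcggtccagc
Nppc: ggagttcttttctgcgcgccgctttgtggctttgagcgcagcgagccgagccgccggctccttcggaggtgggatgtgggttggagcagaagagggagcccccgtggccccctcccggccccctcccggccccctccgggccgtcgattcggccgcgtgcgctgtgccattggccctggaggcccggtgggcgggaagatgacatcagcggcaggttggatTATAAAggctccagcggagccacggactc
Areg: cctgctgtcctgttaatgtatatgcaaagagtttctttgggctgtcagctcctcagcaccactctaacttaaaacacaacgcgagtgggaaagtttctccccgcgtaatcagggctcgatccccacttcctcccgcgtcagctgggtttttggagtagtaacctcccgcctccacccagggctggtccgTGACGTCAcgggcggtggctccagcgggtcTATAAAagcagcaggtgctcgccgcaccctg

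TATAAA stood on the other strand of the *Tnfsf11* window, beginning 32 bases before the start, and on the gene's strand of *Nppc* (29 bases) and *Areg* (31 bases). *Areg* also held TGACGTCA, 61 bases before its start, and the *Lhcgr* window held neither. Of all 32851 RefSeq promoters of this length, 12.4% held TATAAA and 1.55% held TGACGTCA. These matches describe letters and not binding sites.

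Most of the *Tnfsf11*/*Comp* cells lay in barcode set 1. There were 555 of them in set 1, 230 in set 2 and 14 in set 3, which are 5.34% (4.92 to 5.79), 2.32% (2.03 to 2.63) and 0.122% (0.0667 to 0.205) of the cells of each set. As a share of granulosa-like cells they were 13.3% (12.3 to 14.4), 5.80% (5.09 to 6.58) and 0.281% (0.15 to 0.480). Both genes of the rule went with this order, since *Tnfsf11* was detected in 24.5, 15.8 and 3.09% of the granulosa-like cells within the limits on the other genes, and *Comp* reached a value of 1 in 38.2, 26.8 and 17.6% of them. With 14 cells, set 3 is described by its values, and the comparisons across genes below use sets 1 and 2.

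The steps of the rule removed unequal numbers of cells. *Tnfsf11* was detected in 2167 cells, and 998 of these had *Comp* at 1 or more. The limits on *Dcn*, *Cyp17a1*, *Ptprc* and *Pecam1* left 938, and the limit on mitotic genes left 799. A single UMI of *Tnfsf11* brought in 299 of the 799 cells, 163 had 2 UMIs, 88 had 3 and 249 had 4 or more. The *Tnfsf11* value of the cells ran from 0.271 to 3.70 with a median of 1.48, and their *Comp* value from 1.00 to 4.22 with a median of 2.13. Just inside the limit, 58 cells had a *Comp* value of 1 to 1.2 (median 1.09), and just outside, 80 cells that met every other condition had a value of 0.8 to 1 (median 0.902). Of the 727 cells left out by *Comp* alone, 575 had no *Comp* UMI.

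Most of the cells lay among GCs. Of the 799, 791 fell into clusters named granulosa-like, where clustering had been done without the genes of the rule and of the label, and the other 8 into theca-like, luteal-like, smooth muscle-like, endothelial-like or unnamed clusters. The summed level of 10 GC markers (the inhibin subunits *Inha*, *Inhba* and *Inhbb*, with *Fst*, *Amh*, *Hsd17b1*, *Nr5a2*, *Gatm*, *Serpine2* and *Kctd14*) came to 264, 267 and 76.2 in sets 1 to 3, against 129, 162 and 62.2 in the other GCs, the 9267 granulosa-like cells that met the same limits on *Dcn*, *Cyp17a1*, *Ptprc*, *Pecam1* and mitotic genes but were not *Tnfsf11*/*Comp* cells. *Inha* alone made up 108, 109 and 51.7 of the sums in the *Tnfsf11*/*Comp* cells. *Kctd14* and *Amh* went the other way in sets 1 and 2, as given below. *Gatm* was the 1 marker at 0, in set 3, where *Inhba* was detected in 7.14% of the cells. Of the markers of other cells, 8 of stroma summed to between 1.27 and 1.88 against 51.4 to 90.8 in stroma-like cells, and 7 endothelial markers to between 0.235 and 0.539 against 54.2 to 55.7 in endothelial-like cells. *Ptprc* and *Pecam1*, in the myeloid and endothelial lists, were at 0 by the rule. It also limited *Dcn* and *Cyp17a1*, in the stroma and theca lists. The clusters were named from these same lists, so the sums are in part set by the choice and describe the cells only. The 7 theca markers summed to 67.0 in set 1 and 69.1 in set 2, of which *Hsd3b1*, which GCs also express, made up 54.6 and 49.6, and in set 3 to 89.3, of which *Ephx2* made up 77.3. Theca-like cells had 108, 90.6 and 44.9, so that in set 3 the sum was above both that of theca-like cells and the GC sum of 76.2. *Insl3*, a defining theca product, was at 0 in sets 2 and 3. Smooth muscle markers summed to between 0.502 and 1.45 and myeloid, lymphoid, epithelial, oocyte and erythroid markers each to at most 0.331. The mitotic genes, limited by the rule, summed to between 0.479 and 0.535. The 5 luteal markers summed to 8.73, 15.2 and 18.7 against 29.7, 36.8 and 43.8 in luteal-like cells.

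Depth was similar in the cells compared. The *Tnfsf11*/*Comp* cells had medians of 5867, 6583.5 and 5670 UMIs in the 3 sets and the other GCs 5376, 6538 and 6146. The mitochondrial share had medians of 4.81, 5.17 and 2.85% in the *Tnfsf11*/*Comp* cells of sets 1, 2 and 3 and of 4.63, 5.10 and 3.25% in the other GCs. Pooled over the sets, which the 2 kinds of cell fill unequally, the medians were 4.89 and 4.28%. No doublet removal is described for the table, and 67 of the *Tnfsf11*/*Comp* cells held more than 2 times their median, up to 99470 UMIs.

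Of the 4 genes of the label, *Tnfsf11* and *Comp* were high in these cells by construction. The *Tnfsf11* level was 4.32, 6.65 and 3.62 in the *Tnfsf11*/*Comp* cells of sets 1, 2 and 3 and 0.262, 0.498 and 0.0623 in the other GCs. *Comp* was at 11.7, 7.71 and 4.0 against 2.13, 1.36 and 1.00. Over the whole table, granulosa-like clusters held 94.7% of all *Tnfsf11* UMIs and 93.7% of all *Comp* UMIs.

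*Rhox8*, which the rule did not use, was at 4.02 in the *Tnfsf11*/*Comp* cells of set 1 and at 0.709 in the other GCs (5.67-fold, 5.25 to 6.13). In set 2 it was at 2.67 against 1.41 (1.90-fold, 1.71 to 2.10) and in set 3 at 33.1 against 16.2. In set 3 *Rhox8* was no higher than in the granulosa-like cells with *Comp* at 1 or more and no *Tnfsf11*. It was at 34.5 in these 621 cells and at 34.5 in the 13 granulosa-like cells with both genes. It was no mark of GCs alone, since theca-like cells had 0.739, 3.13 and 19.3 in sets 1 to 3. These levels were above those of the other GCs in each set, though only slightly in set 1, and above the *Tnfsf11*/*Comp* cells in set 2. Thinned to 3000 UMIs per cell, the share of *Tnfsf11*/*Comp* cells with a *Rhox8* UMI was 43.2% (39.0 to 47.5) in set 1 and 31.9% (25.8 to 38.4) in set 2, against 10.4 and 15.4% of the other GCs and 0.767 and 1.52% of endothelial-like cells, which should lack it. Before thinning the shares were 59.6 and 48.7% of the *Tnfsf11*/*Comp* cells.

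*Flrt3* was a gene of set 2. Its level was 0.0698 in the *Tnfsf11*/*Comp* cells of set 1, below the 0.109 of the other GCs (0.641-fold, 0.426 to 0.937, but 1.17-fold, 0.653 to 1.97, in the UMIs held out below), 3.27 in set 2 against 1.15 (2.84-fold, 2.57 to 3.12), and 0.0472, from 1 UMI, in set 3. After thinning, 2.38% of these cells had a *Flrt3* UMI in set 1, no more than the 2.81% of endothelial-like cells, and 44.7% (38.1 to 51.4) in set 2. Its level thus differed more between the sets than between the 2 kinds of cell.

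**Figure D1:**
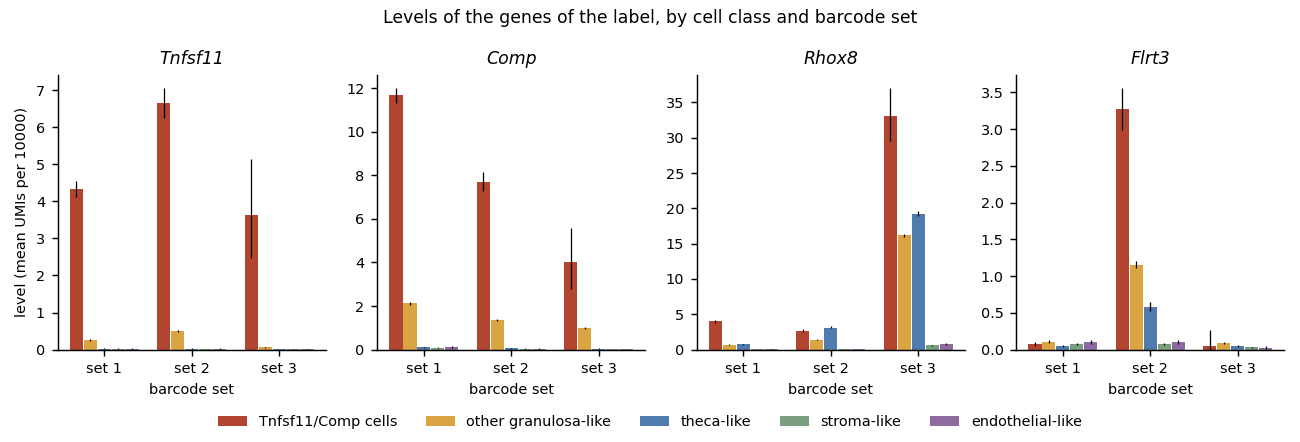
Levels of *Tnfsf11*, *Comp*, *Rhox8* and *Flrt3* (vertical axes, mean UMIs per 10000, each with its own scale) in the *Tnfsf11*/*Comp* cells and in 4 other classes of each barcode set, with 95% counting intervals as lines. *Tnfsf11* and *Comp* chose the cells and are highest in them by construction, whereas *Rhox8* was highest in set 3 and *Flrt3* in set 2.

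The receptors of RANKL were read in other cells. *Tnfrsf11a* had 1 UMI in all 799 *Tnfsf11*/*Comp* cells and 1 in the 9267 other GCs. Myeloid-like cells had a level of 0.524 with a UMI in 22.2% of 409 cells, and endothelial-like cells 0.0878 with a UMI in 5.53% of 1647 cells. These 2 classes held 45.0 and 43.5% of the *Tnfrsf11a* UMIs of the table. The decoy receptor *Tnfrsf11b* had 3 UMIs in the *Tnfsf11*/*Comp* cells. Beside *Tnfsf11*, 12 further genes of RANKL signalling were listed, of which *Rela* was abundant enough to be compared and was not counted as different (0.283 against 0.279 in set 1), and none of 15 other TNF superfamily ligands was abundant enough, their summed level being 0.127 in set 1 and 0.0894 in set 2.

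To find what else the cells shared, each gene was compared with the other GCs of the same set and counted as higher or lower where the levels differed at least 2-fold in the same direction in both sets 1 and 2 with intervals away from 1. Of 5141 genes tested, 42 or 0.817% were higher in the *Tnfsf11*/*Comp* cells and 97 or 1.89% were lower. *Tnfsf11* and *Comp*, higher by construction, are among the 42. No gene was counted in opposite directions in the 2 sets. The median log2 ratio of all genes tested was 0.05 in set 1 and -0.11 in set 2. Each set is 1 sample of cells, and the pair of sets is not a replicate of a condition.

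The receptor genes *Lhcgr*, *Prlr* and *Ptgfr* were among the higher ones. *Lhcgr* was at 3.69 against 0.739 in set 1 (4.99-fold, 4.62 to 5.39) and at 2.68 against 0.751 in set 2 (3.56-fold, 3.19 to 3.98). It was detected in 63.2, 60.4 and 14.3% of the *Tnfsf11*/*Comp* cells of the 3 sets. Thinned, the shares of sets 1 and 2 were 49.1 and 47.3%, against 13.0 and 14.5% of the other GCs and 5.37 and 3.04% of endothelial-like cells. *Prlr*, the prolactin receptor, was at 8.12 against 3.39 in set 1 (2.40-fold) and at 6.37 against 2.47 in set 2 (2.58-fold). *Ptgfr*, the receptor for prostaglandin F2α, was at 0.170 against 0.0471 (3.61-fold, 2.57 to 5.07) and at 4.96 against 1.67 (2.97-fold, 2.75 to 3.21). *Fshr*, the FSH receptor, differed less, at 1.33 against 1.06 in set 1 and 0.889 against 0.683 in set 2, and was not counted. Of the 11 tested genes of gonadotropin receptors and cyclic AMP signalling, *Lhcgr* was the 1 that was higher, beside 0.817% of all genes tested. Of 3 tested luteal markers, a list chosen with earlier results of these data known, *Prlr* and *Ptgfr* were higher. Against all cells with at least 3 of the 10 GC markers within the same limits, whatever their cluster, *Ptgfr* in set 1 turned to 0.431-fold.

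Of 18 steroid synthesis genes listed and tested, 3 were counted as higher, among them *Cyp11a1* and *Hsd3b1*, and none as lower, beside 0.817% of all genes tested that were higher. Their median log2 ratios were 1.05 in set 1 and 0.94 in set 2. *Cyp11a1*, which cleaves cholesterol to pregnenolone, was at 7.77 against 2.17 in set 1 (3.58-fold, 3.41 to 3.76) and at 15.7 against 4.48 in set 2 (3.50-fold, 3.35 to 3.66). Against all cells with at least 3 GC markers it turned to 0.765-fold in set 1. *Hsd3b1*, which makes progesterone, was at 54.6 against 24.7 (2.21-fold) and at 49.6 against 24.3 (2.04-fold). The genes that make oestrogen differed more in set 1 than in set 2. *Cyp19a1*, the aromatase, was at 6.34 against 1.48 in set 1 (4.29-fold, 4.06 to 4.54) and at 9.16 against 5.07 in set 2 (1.81-fold, 1.71 to 1.91), and *Hsd17b1* at 16.8 against 7.04 (2.39-fold) and at 10.9 against 5.98 (1.83-fold), so neither met the criterion in both sets. In the 14 cells of set 3, *Cyp19a1* had no UMI, which allows 3 UMIs among the 94885 UMIs of these cells.

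Some known products of mural GCs were at higher levels but below the criterion. *Inhba*, the activin and inhibin βA subunit, was at 75.2 against 23.6 in set 1 (3.19-fold, 3.14 to 3.23) and at 73.2 against 37.4 in set 2 (1.95-fold, 1.92 to 1.99), and was at 0.0608, or 1 UMI, in set 3. *Inha*, the inhibin α subunit, was at 108 against 52.9, at 109 against 63.8 and at 51.7 against 38.0. *Nppc* was at 10.1 against 4.79 (2.11-fold) and at 5.78 against 3.02 (1.92-fold). None of these 3 was counted. Of 15 tested genes of the inhibin, activin, BMP and TGF-β family none was higher and *Smad7*, an inhibitory SMAD, was lower. This is little to read beside 0.817% higher and 1.89% lower of all genes tested. *Amh*, a product of GCs of small growing follicles and of cumulus cells, was detected in 1.08, 0.435 and 7.14% of the *Tnfsf11*/*Comp* cells, which is 8 cells in all, against 8.33, 8.89 and 13.7% of the other GCs.

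Beyond the rule, *Lrp2*, the endocytic receptor megalin, had the largest ratio when a gene is ranked by the smaller of its 2 ratios. Its level was 1.37 against 0.251 in set 1 (5.47-fold, 4.79 to 6.25) and 0.465 against 0.107 in set 2 (4.35-fold, 3.25 to 5.76). *Dock5*, an exchange factor for Rac, was at 0.770 against 0.139 (5.55-fold) and at 0.590 against 0.138 (4.29-fold), and *Tulp2*, a tubby family gene, at 1.11 against 0.231 (4.81-fold) and at 0.425 against 0.114 (3.73-fold). These 3 genes were at low levels, and in every one the lower bound of the interval was above 2 in both sets. *Pappa*, a protease that frees insulin-like growth factors from their binding proteins, was at 0.345 against 0.0592 in set 1 (5.83-fold, 4.51 to 7.56) and at 0.985 against 0.352 in set 2 (2.80-fold, 2.34 to 3.34). *Grin2b*, a subunit of the NMDA receptor, was at 0.565 against 0.137 (4.11-fold) and at 1.68 against 0.618 (2.72-fold). *Hao2*, a peroxisomal hydroxyacid oxidase, was at 2.39 against 0.599 (3.99-fold) and at 6.19 against 2.21 (2.80-fold).

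Further genes of large ratio had other roles. *Elovl6*, which lengthens fatty acids, was at 5.87 against 1.75 (3.36-fold) and at 2.83 against 1.07 (2.64-fold), *Me1*, the cytosolic malic enzyme, at 4.02 against 1.60 (2.51-fold) and at 7.44 against 3.06 (2.43-fold), and *Fads3*, of the fatty acid desaturase family, at 0.285 against 0.0870 and at 0.545 against 0.226. *Mgarp*, a mitochondrial protein of steroidogenic tissue, was at 7.59 against 2.67 (2.84-fold) and at 7.70 against 3.04 (2.53-fold). *Clec14a* and *Cd34*, both better known from endothelium, were at 1.53 against 0.365 and 1.01 against 0.288 in set 1 and at 0.300 against 0.0907 and 0.357 against 0.132 in set 2, in cells whose 7 endothelial markers summed to 0.261 in set 1 and 0.539 in set 2. *Kitl*, the KIT ligand that GCs present to the oocyte, was at 2.10 against 0.857 (2.45-fold) and at 6.88 against 3.16 (2.17-fold). *Pkdcc*, *Gm35533*, *Rerg* and *Gldn* were higher as well, by 2.64-fold to 3.32-fold.

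**Figure D2:**
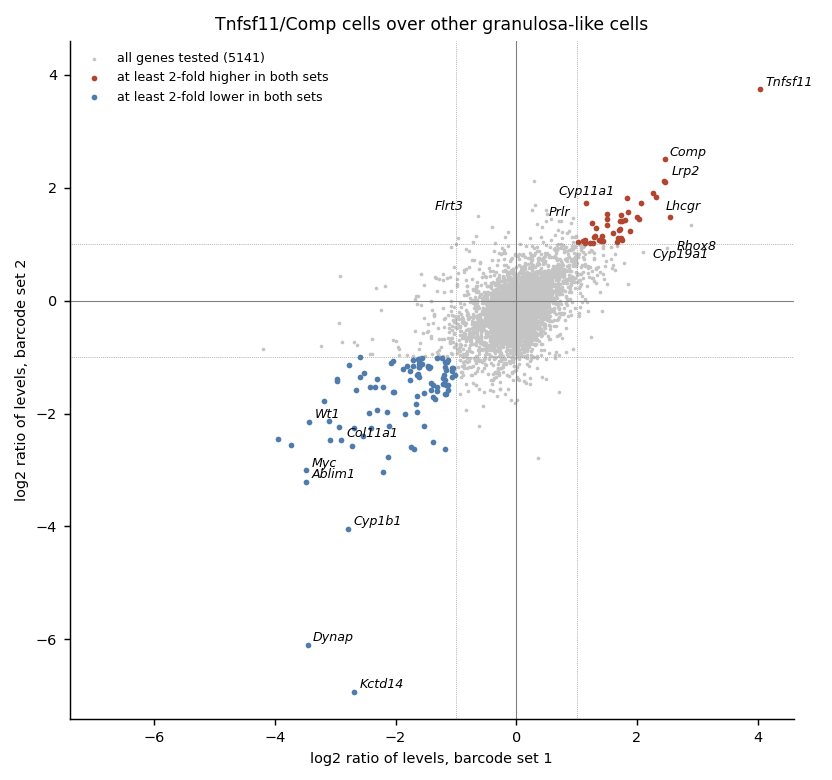
Log2 ratio of the level in the *Tnfsf11*/*Comp* cells over the other granulosa-like cells for each gene tested, in barcode set 1 (horizontal) and set 2 (vertical). The 42 genes at least 2-fold higher in both sets are red and the 97 at least 2-fold lower are blue, with dotted lines at 2-fold, and genes with no UMI in a group of either set are not drawn. *Rhox8* and *Cyp19a1* passed 2-fold in set 1 only and *Flrt3* in set 2 only.

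Among the lower genes, *Myc* and *Mycl*, transcription factors of growth, stood near the top. *Myc* was at 0.0782 against 0.877 in set 1 (0.0891-fold, 0.0650 to 0.119) and at 0.0852 against 0.683 in set 2 (0.125-fold, 0.0696 to 0.206), and *Mycl* at 0.0567 against 0.750 and at 0.0828 against 0.490. *Dynap* was at 0.0481 against 0.529 in set 1 and at 0.00609, from 1 UMI, against 0.418 in set 2 (0.0146-fold, 0.000369 to 0.0814). *Wt1*, a transcription factor of immature GCs, was at 0.0445 against 0.481 (0.0926-fold) and at 0.0975 against 0.432 (0.226-fold), and was the 1 of 18 tested GC transcription factors that was counted. *Kctd14*, the 1 lower gene of 8 tested GC markers, was at 0.0843 against 0.545 and at 0.00501, from 2 UMIs, against 0.610 (0.00822-fold, 0.000995 to 0.0298). Beside these list counts, 1.89% of all genes tested were lower and 0.817% higher.

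Other lower genes encode proteins of the matrix, the cytoskeleton and the cell surface. *Col11a1*, a fibrillar collagen of cartilage, was at 0.226 against 1.69 in set 1 (0.133-fold, 0.109 to 0.161) and at 0.229 against 1.27 in set 2 (0.180-fold, 0.128 to 0.245). *Thbs1*, a thrombospondin like *Comp*, was at 0.529 against 3.34 (0.159-fold) and at 1.22 against 3.65 (0.333-fold). The *Tnfsf11*/*Comp* cells, chosen for *Comp*, thus had less *Thbs1*. Of 4 tested genes of the thrombospondin and cartilage matrix list, *Thbs1* and *Col11a1* were lower and none was higher, beside 1.89 and 0.817% of all genes. The summed level of the whole list was 8.14 against 9.80 in set 1, 21.8 against 14.9 in set 2 and 57.0 against 33.2 in set 3. Most of each sum in the *Tnfsf11*/*Comp* cells came from the proteoglycan gene *Vcan*, whose levels are given with set 3 below, so the sums say little of the list as a group. *Dsp*, which encodes desmoplakin of the desmosome, was at 0.134 against 0.717 (0.187-fold) and at 0.139 against 0.661 (0.210-fold). *Ablim1*, an actin-binding protein, was at 0.0647 against 0.725 and at 0.0560 against 0.518, and *Plxna2*, a semaphorin receptor, at 0.105 against 0.694 and at 0.0754 against 0.452.

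Of 12 tested genes listed for atresia, the loss of follicles by GC death, 3 were lower and none higher, beside 1.89% lower and 0.817% higher of all genes. *Itih5*, a hyaluronan-binding inhibitor chain, was at 0.487 against 4.18 in set 1 (0.117-fold, 0.102 to 0.132) and at 0.559 against 2.46 in set 2 (0.227-fold, 0.181 to 0.283). *Ghr*, the growth hormone receptor, was at 0.136 against 0.874 and at 0.104 against 0.494, and *Pik3ip1*, an inhibitor of PI3K, at 0.259 against 1.15 and at 0.0656 against 0.258. *Cyp1b1*, *Tex14*, *Nupr1* and *Cables1* were lower too, with ratios of 0.0607 to 0.216 over the 2 sets, the lowest being that of *Cyp1b1* in set 2, from 2 UMIs (0.00733 to 0.220). *Igfbp5*, an IGF-binding protein of GCs, was at 0.209 against 0.679 and at 0.133 against 0.820, so that in the list of 9 tested IGF genes *Pappa* was higher and *Igfbp5* lower.

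In several lists no or few genes were counted, which is little to read beside 0.817 and 1.89% of all genes. None of 15 tested genes of the LH response and ovulation was higher or lower in both sets. Nor was any of 5 of cumulus expansion, 6 of the follicular basement membrane, 10 of heat shock and dissociation or 3 of WNT signalling. The same held for 5 of the FLRT proteins and their partners, 6 of cyclins and CDK inhibitors and 4 of the S and G2/M phases. *Areg*, *Ereg* and *Pgr* rested on few UMIs in set 1, so the criterion could hardly be met. In set 2 they were at 34.5, 35.7 and 2.53 in the granulosa-like cells with both genes of the rule. With neither gene they were at 8.84, 8.08 and 0.635, and cells with 1 gene lay between. The whole LH response list summed to 112 against 65.1 in the other GCs of set 2, and to 12.5 against 11.5 in set 1. Of 5 tested hedgehog and Notch genes *Ptch1*, the hedgehog receptor, was lower, and of 9 junction and adhesion genes *Itga6*, an integrin subunit, was lower. Of 11 other Rhox genes listed, 8 were in the table and none was abundant enough to be compared. Of 22 immediate early genes *Myc* was lower and the median log2 ratios were -0.64 in set 1 and -0.09 in set 2. *Fosl2*, the transcription factor the study is about, was at 4.86 against 2.62 in set 1 (1.85-fold, 1.76 to 1.95) and at 5.48 against 4.74 in set 2 (1.16-fold, 1.08 to 1.24), below the 2-fold limit in both. It was detected in 86.5, 95.7 and 64.3% of the *Tnfsf11*/*Comp* cells.

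Fewer genes met the same criterion, which also requires a level of at least 0.25 averaged over the groups and sets, when the cells were set beside the other GCs with *Lhcgr*. These were the 522 cells of set 1 and 652 of set 2 with *Lhcgr* and without *Amh* detected, so that their *Lhcgr* level was fixed by the choice. Of 5090 genes tested, only *Tnfsf11* and *Comp* (0.0393%) were at least 2-fold higher in the *Tnfsf11*/*Comp* cells in both sets, and 7 genes (0.138%) were lower, among them *Itih5*, *Col11a1*, *Foxp2*, *Mpzl2*, *Cables1* and *Pqlc1*. These 7 were among the 97 genes lower against the other GCs, of which 64 were tested again and 33 fell under the limit on low levels, with 11 of the 33 at least 2-fold lower in both sets here too. *Myc* was one of the 33, at 0.0782 against 0.369 in set 1 and at 0.0852 against 0.281 in set 2. With the *Tnfsf11*/*Comp* cells limited to those with *Lhcgr* and without *Amh*, 4 genes were higher and 17 lower. The *Lhcgr* level itself was 0.968-fold and 0.80-fold that of the comparison cells, although only 63.2 and 60.4% of the *Tnfsf11*/*Comp* cells had an *Lhcgr* UMI. *Lrp2* was 1.82-fold and 1.66-fold higher, *Dock5* 2.0-fold and 1.91-fold, *Cyp11a1* 1.75-fold and 1.53-fold, and *Inhba* 1.52-fold and 1.26-fold. *Itih5* was at 0.487 against 2.09 in set 1 and at 0.559 against 1.2 in set 2.

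The GCs with *Amh* were farther away. These were 203 cells of set 1 and 248 of set 2 with *Amh* and without *Lhcgr* detected, at larger depth (medians of 7789 and 8886.5 UMIs). Of 5211 genes tested, 266 (5.1%) were higher in the *Tnfsf11*/*Comp* cells and 266 (5.1%) lower. *Inhba* was at 1.66 and 5.22 in the *Amh* cells, *Cyp19a1* at 0.0979 and 0.730, *Hsd3b1* at 4.36 and 4.65 and *Prlr* at 0.585 and 0.375, each of them more than 2-fold lower than in the *Tnfsf11*/*Comp* cells. *Wt1* was at 1.97 and 1.84 and *Igfbp5* at 2.96 and 3.72, each higher than in the *Tnfsf11*/*Comp* cells.

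Cells that met 1 of the 2 gene conditions were set between those that met both and those that met neither. The genes described were picked in part because they were higher in the *Tnfsf11*/*Comp* cells, so that their place at the top was given by the choice. Among granulosa-like cells within the limits, set 1 had 1781 cells with neither *Tnfsf11* nor a *Comp* value of 1, 253 with *Tnfsf11* alone, 703 with *Comp* alone and 552 with both. *Lhcgr* was at 0.320, 1.55, 1.51 and 3.69 in these groups in that order. *Rhox8* was at 0.219, 1.17, 1.79 and 4.02, and *Inhba* at 10.7, 56.6, 44.5 and 75.4. In each of these 3 genes the cells with both stood highest and the cells with neither lowest. Set 2 had 2047, 276, 624 and 226 such cells and showed the same order for *Lhcgr*, at 0.425, 1.40, 1.53 and 2.71. *Rhox8* in set 2 was an exception, at 0.810, 1.72, 3.23 and 2.71, highest in the cells with *Comp* alone. *Inhbb* was highest in the cells with *Tnfsf11* alone, at 2.79, 15.4, 7.25 and 11.2 in set 1 and 4.11, 8.41, 5.79 and 7.50 in set 2, and *Foxl2* in set 2 and *Amh* in both sets were highest in the cells with neither. Median depth was 5485, 6899, 4857 and 5864.5 UMIs in the 4 groups of set 1, and its part in the gradient was not tested.

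**Figure D3:**
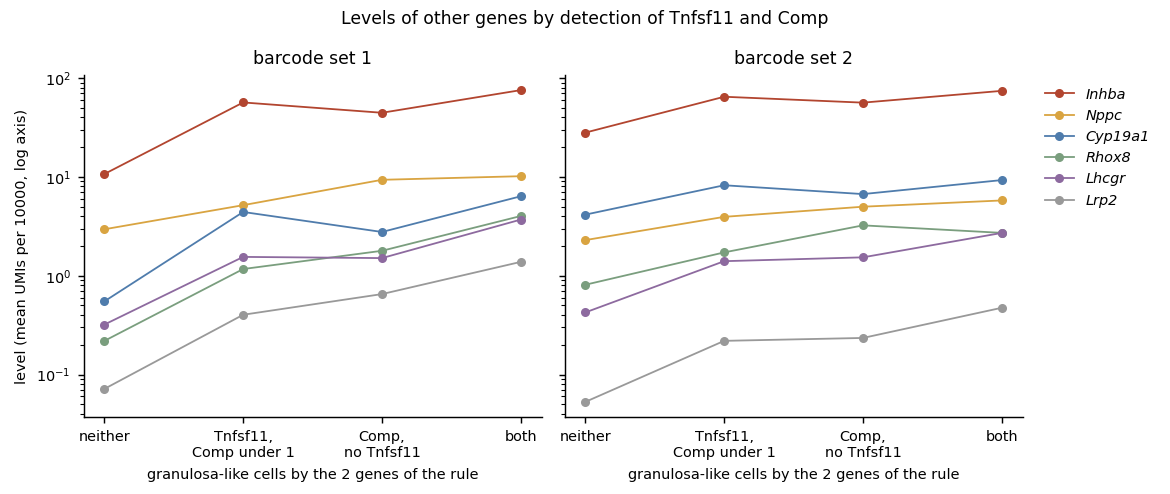
Levels (vertical, mean UMIs per 10000 on a log axis) of 6 genes outside the rule in granulosa-like cells grouped by *Tnfsf11* and *Comp*, in barcode sets 1 and 2. From left to right the groups are neither gene, *Tnfsf11* with *Comp* under a value of 1, *Comp* without *Tnfsf11*, and both; *Lhcgr* ran from 0.320 to 3.69 in set 1.

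The rule was also applied to 1 part of the UMIs and the levels measured on the other, since a cell with a high count by chance enters the rule more easily. With the rule applied to a random 50% of the UMIs of every cell and the levels taken from the remaining UMIs, 395 cells of set 1 and 180 of set 2 were chosen. The cells compared were not the other GCs above. They were the 3025 and 3127 granulosa-like cells within the limits on the drawn UMIs that were not chosen there. *Tnfsf11*/*Comp* cells that missed the rule on the drawn UMIs were thus among them, and their *Tnfsf11* level was 0.519 and 0.515. In the held-out UMIs *Tnfsf11* was 7.99-fold (7.08 to 9.02) and 14.2-fold (12.5 to 16) higher than in these cells, and *Comp* 4.32-fold and 4.81-fold. *Lhcgr* was 4.37-fold and 3.41-fold higher, *Rhox8* 4.26-fold and 2.47-fold, and *Lrp2* 4.67-fold and 4.42-fold. Of the 42 higher and 97 lower genes, 33 and 75 were counted again.

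Within the *Tnfsf11*/*Comp* cells, levels varied widely from cell to cell. *Inha* was detected in every one of them and ran from 18.6 to 303 UMIs per 10000 with a median of 105 in set 1, and from 2.45 to 230 with a median of 106 in set 2. *Inhba* had medians of 73.5 and 72.1 with lowest values of 0, and *Hsd17b1* of 15.5 and 10.4. *Lhcgr* ran from 0 to 31.9 with a median of 1.98 in set 1 and from 0 to 18 with a median of 1.58 in set 2. A single UMI in a cell of median depth is above 1 UMI per 10000, so low genes take few steps per cell.

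**Figure D4:**
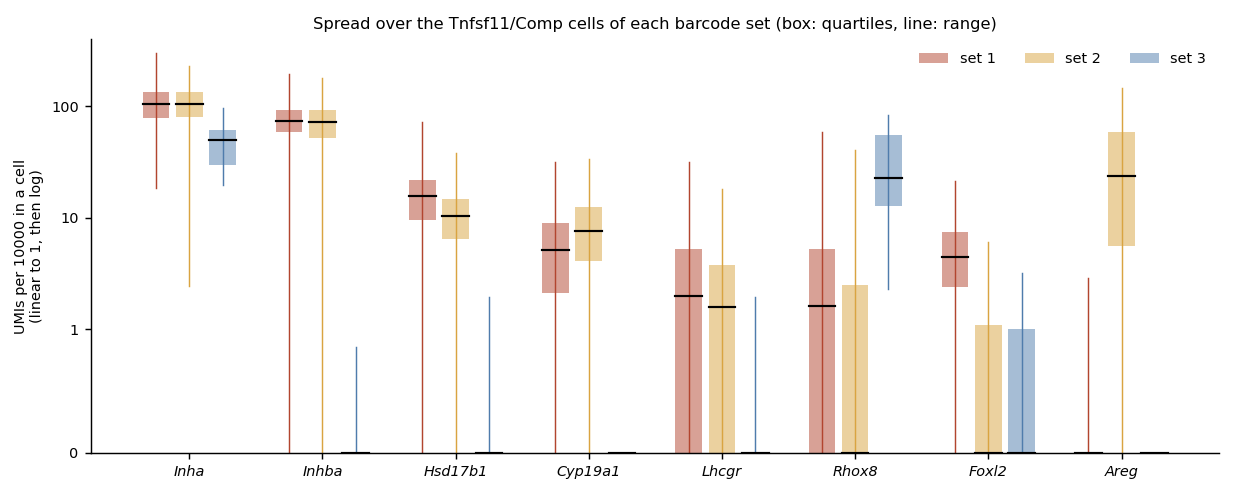
Spread over single *Tnfsf11*/*Comp* cells of 8 genes in barcode sets 1 (555 cells), 2 (230 cells) and 3 (14 cells), as UMIs per 10000 on an axis that is linear to 1 and logarithmic above it. Boxes span the quartiles, black lines mark the medians and thin lines the range; *Areg* had a median of 23.7 in set 2 and of 0 in sets 1 and 3.

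The cells split over few clusters. In set 1, cluster 3 held 424 of them (76.4%), cluster 8 held 88 and cluster 12 held 32, and in set 2 cluster 4 held 194 (84.3%) and cluster 8 held 22. They were 47.6% of the cells of cluster 3 in set 1 and 17.4% of cluster 4 in set 2, so neither cluster was made of them alone. *Lhcgr* was at 4.44 (4.21 to 4.68) in those of cluster 3, 1.13 (0.921 to 1.37) in those of cluster 8 and 1.5 (1.11 to 1.96) in those of cluster 12. *Inhbb*, the activin and inhibin βB subunit, was highest in those of cluster 8, at 8.42, 28.4 and 1.64, as was *Ihh*, a hedgehog ligand of GCs, at 0.704, 4.71 and 0.248. *Ccn2*, a matricellular protein, was highest in those of cluster 12, at 3.77, 1.47 and 14.7. In set 2, *Lhcgr* was at 3.01 in the cells of cluster 4 and 1.17 in those of cluster 8, *Cyp11a1* at 17.4 and 4.87, and *Inhbb* at 6.57 and 16.1. The *Tnfsf11*/*Comp* cells with little *Lhcgr* and much *Inhbb* thus formed a smaller group in both sets. Since the clusters were drawn from these same genes, the values describe the clusters and are no test of them.

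The cells were also split by the values of *Comp* and *Tnfsf11*, the genes that chose them, which is a description and no test. Some genes were higher and some lower in the cells with the stronger signal. Cells with *Comp* at 2 or more had median depths of 5790 against 6205 UMIs in set 1 and 6249 against 7040.5 in set 2. In these cells *Inhba* was at 78.2 against 70.4 in set 1 and at 69.5 against 76.1 in set 2. The part of depth was not tested. In set 1, the 338 cells with a *Comp* value of at least 2 had *Lhcgr* at 4.45 (4.20 to 4.72) and the 217 cells under 2 had 2.50 (2.27 to 2.74). *Rhox8* was at 4.78 against 2.83 and *Cyp11a1* at 8.89 against 6.04 in the same cells. In set 2, the 104 cells with *Comp* at 2 or more had *Lhcgr* at 3.47 against 2.02 in the other 126 and *Cyp11a1* at 20.1 against 12, while *Rhox8* was at 2.82 (2.45 to 3.23) against 2.55 (2.23 to 2.91). *Cyp19a1* was lower by *Comp* in set 2, at 7.36 (6.75 to 8.0) against 10.7 (9.99 to 11.3). In set 1 it was higher, at 6.89 (6.56 to 7.23) against 5.48 (5.14 to 5.83). By *Tnfsf11*, *Cyp19a1* was at 8.16 against 5.87 in set 1 and at 9.74 against 8.84 in set 2. Cells with a *Tnfsf11* value of at least 2 had *Lhcgr* at 3.35 (2.87 to 3.89) against 2.30 (2.02 to 2.61) in set 2. In set 1 they had it at 4.13 (3.70 to 4.6) against 3.57 (3.37 to 3.78). An overlap of intervals does not show that levels were equal. *Nppc* by *Tnfsf11* was at 9.14 against 10.4 in set 1 and at 7.52 against 4.82 in set 2. *Fshr* was at 1.36 against 1.28 in set 1 by *Comp*, with overlapping intervals.

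Between barcode sets, the *Tnfsf11*/*Comp* cells differed in many genes, counted here from 1 contrast. Of 5043 genes tested, 434 (8.61%) were at least 2-fold higher in set 2 than in set 1 and 1103 (21.9%) lower. In the other GCs 357 (6.85%) and 534 (10.2%) of 5214 genes were. The median log2 ratio of all genes tested was -0.45 in the *Tnfsf11*/*Comp* cells and -0.31 in the other GCs, so many genes of small difference lay on the lower side, and with every ratio divided by the median the split was 647 higher and 489 lower, or 57.0% higher in place of 28.2%. Which set was collected when is not known, and the time after hCG, the library and any difference in handling cannot be told apart.

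EGF-like growth factors, which relay the LH signal within the follicle, were on the higher list. *Ereg* (epiregulin) was at 0.00864 in set 1, from 5 UMIs, and at 35.3 in set 2 (4089-fold, 1751 to 12600). *Areg* was at 0.0218 and 34.1 (1562-fold, 872 to 3131), with TGACGTCA and TATAAA in its window above. *Btc* (betacellulin), the other ligand of this group, was at 0.0242 and 2.78 (115-fold, 61.9 to 241). Set 1 was near zero for all 3, and in set 2 *Areg* was detected in 88.7% and *Ereg* in 91.3% of the *Tnfsf11*/*Comp* cells. At 3000 UMIs these shares were 85.0 and 88.5%, against 47.4 and 47.0% of the other GCs, 12.8 and 11.8% of endothelial-like cells and 20.2 and 25.2% of stroma-like cells. *Tnfaip6*, which links hyaluronan in the cumulus matrix, was at 0.00482, from 3 UMIs, and 9.13 (1892-fold, 646 to 9185). *Pthlh* was at 0.00272, from 2 UMIs, and 1.82 (669-fold, 183 to 5554), and *F3* (tissue factor) at 0.0548 and 23.9 (436-fold, 292 to 681). *Nts* (neurotensin) and *Sult1e1* (oestrogen sulfotransferase) had no UMI in set 1 and were at 3.37 and 2.88 in set 2, at least 366-fold and 313-fold higher when set 1 is put at 3 UMIs over its cells. *Npy*, the neuropeptide Y gene, was at 2.99 in set 2 against 0.00337, from 1 UMI, in set 1 (886-fold, 158 to 35051).

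By list, 12 of 16 tested LH response genes were higher in set 2 and none lower, with a median log2 ratio of 2.80 beside 2.67 in the other GCs. Of all genes tested, 8.61% were higher and 21.9% lower. Of 21 immediate early genes 14 were higher and none lower, with a median of 2.01 beside 1.09. *Pgr*, the progesterone receptor needed for ovulation, was at 0.0151 and 2.48 (164-fold, 82.4 to 382). Of 17 steroid synthesis genes 7 were higher and 1 lower. *Star*, which brings cholesterol into mitochondria, was at 0.0288 and 11.3 (393-fold, 213 to 821), and *Fdx1*, which passes electrons to *Cyp11a1*, at 4.12 and 103 (25.1-fold, 23.8 to 26.4). *Cyp11a1* was at 7.77 and 15.7 (2.02-fold, 1.91 to 2.12). *Cyp19a1*, at 6.34 and 9.16, and *Hsd3b1*, at 54.6 and 49.6, were not counted.

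Among the lower genes, *Cfap97*, *Sh2d4a*, *Zmynd8* and *Gpam* had the smallest ratios. *Gpam*, which starts triglyceride synthesis, was at 1.92 in set 1 and 0.0968 in set 2 (0.0505-fold, 0.0307 to 0.0785), and *Cfap97* at 0.537 and 0.0141 (0.0262-fold). *Foxl2*, the transcription factor that maintains GC identity, was at 5.32 and 0.597 (0.112-fold, 0.0913 to 0.137), and *Foxo1*, a factor held back by FSH signalling, at 6.46 and 0.844 (0.131-fold, 0.110 to 0.154). *Foxl2* was detected in 91.2% of these cells in set 1, 28.3% in set 2 and 28.6% in set 3. Of 17 GC transcription factors tested, 6 were lower in set 2 (*Foxl2*, *Esr2*, *Gata6*, *Nr2f2*, *Foxo1* and *Creb1*) and 3 higher (*Runx1*, *Zeb2* and *Crem*), beside the 21.9% lower and 8.61% higher of all genes. Of the genes described above, *Flrt3* was 46.8-fold (32.8 to 69.2) the set 1 level in set 2, while *Rhox8* was 0.665-fold and *Lhcgr* 0.726-fold.

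The other GCs come from the same libraries as the *Tnfsf11*/*Comp* cells, and part of what differed between the sets differed in both. Among 4771 genes tested in both, 293 were higher in set 2 in both kinds of cell, which is 74.0% of the 396 of the *Tnfsf11*/*Comp* cells and 87.2% of the 336 of the other GCs. For lower genes, 383 were shared, 38.0% of 1007 and 87.6% of 437. The genes whose set ratio differed most between the 2 kinds of cell were *Rragd* and *Nipal1*. *Nipal1*, a magnesium transporter, was at 0.0681 and 0.474 in sets 1 and 2 of the *Tnfsf11*/*Comp* cells and at 1.25 and 0.854 in the other GCs. *Rgs2*, a brake on G protein signalling, was at 1.05 and 29.8 against 5.28 and 25.6, so the 2 kinds of cell were apart in set 1 and close in set 2. *Foxl2* lay at the other end, at 5.32 and 0.597 against 2.24 and 0.932, and *Id3*, a BMP target, at 13.4 and 5.63 against 8.61 and 11. *Rhox8* (4.02 and 2.67 against 0.709 and 1.41) and *Flrt3* (0.0698 and 3.27 against 0.109 and 1.15) were also among the 15 genes at either end.

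**Figure D5:**
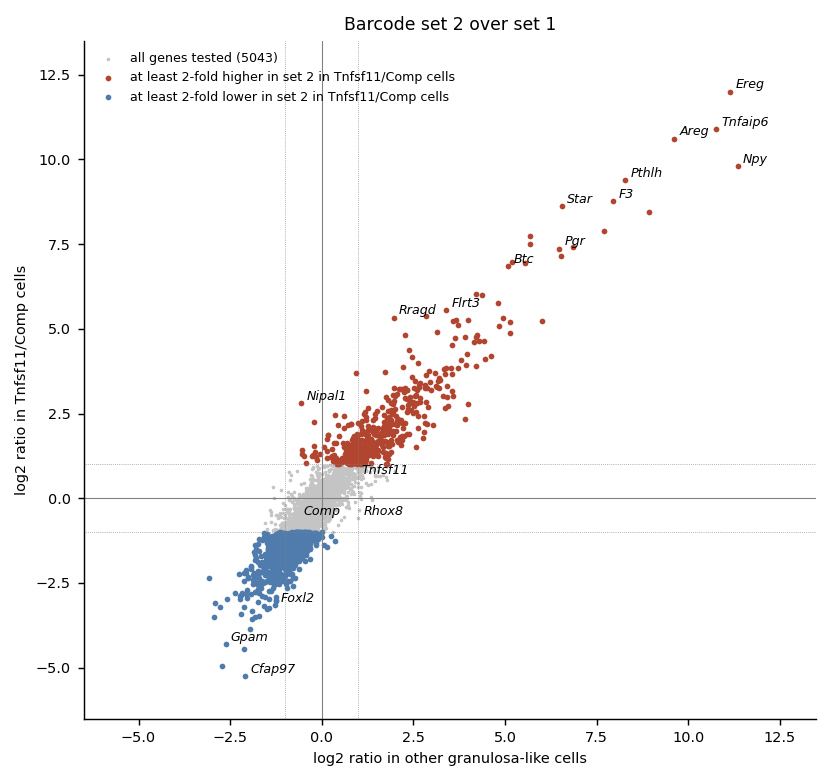
Log2 ratio of the level in barcode set 2 over set 1 for each gene tested, in the other granulosa-like cells (horizontal) and in the *Tnfsf11*/*Comp* cells (vertical). The 434 genes higher in set 2 in the *Tnfsf11*/*Comp* cells are red and the 1103 lower are blue, dotted lines mark 2-fold, and genes with no UMI in a group are not drawn. Both axes rest on the same libraries, and *Ereg*, *Areg* and *Tnfaip6* stand at the far end of both.

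The letters TGACGTCA stood before the start of 18 of the 339 genes higher in set 2 with a RefSeq promoter (5.31%) and of 22 of the 899 lower genes (2.45%), beside 3.72% of the 4058 genes tested.

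The 14 cells of set 3 resembled those of sets 1 and 2 in some genes and not in others. They held *Rhox8* at 2.28 to 83.8 UMIs per 10000 with a median of 22.9, and all 14 had it. At 3000 UMIs, 92.9% of the 14 cells had a *Rhox8* UMI, but so did 55.6% of the other GCs of this set. The shares of endothelial-like and stroma-like cells were 15.2 and 13.2%. *Cyp11a1* was detected in all 14 at a level of 14.7 against 10.5 in the other GCs. *Inhba* was detected in 1 of them, *Lhcgr* and *Nppc* in 2 each, and *Cyp19a1* and *Areg* in none. *Vcan*, a proteoglycan of the ovulatory follicle, was at 55.2 in these cells, 19.5 in set 2 and 6.83 in set 1, and *Ephx2*, a soluble epoxide hydrolase, at 77.3, 15 and 5.52. The other GCs of set 3 also had *Inhba* at 2.28, *Cyp19a1* at 0.0787, *Vcan* at 30.8 and *Ephx2* at 45.8. Of the 14, 7 lay in cluster 2 and 6 in cluster 4, both granulosa-like.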

How the data were processed

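Ovaries were profiled by 10x Genomics single-cell RNA sequencing in 3 libraries, 1 for each of 0, 1 and 6 h after hCG. The authors processed the reads with Cell Ranger and Seurat on mm10, per the submitters' processing notes, with versions not given in the sources used here. The table deposited by the authors holds the natural log of 1 plus the UMIs per 10000 UMIs of 31776 cells. Whole UMIs were recovered from it by undoing the log and the scaling (all values within 0.01 of a whole number), which gave 240030587 UMIs. The members and the gene lists were chosen with earlier results of these data known, and thresholds for naming clusters were adjusted after the clusters had been seen.

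Each barcode set was clustered alone with scanpy 1.11.5 and python-igraph 0.11.9 (2000 variable genes without those of the rule and label, 30 principal components, 15 neighbours, Jaccard graph, Louvain resolution 1), and clusters were named from marker lists. A level is the mean over cells of UMIs per 10000. Ratios carry exact conditional Poisson intervals and shares Clopper-Pearson intervals (scipy 1.17.1), and both cover counting error only. Genes were tested where the mean of the levels of the groups compared, averaged over both sets, was at least 0.25, and counted at 2-fold. The named genes are those of the rule and label, the 20 higher and 15 lower genes of largest ratio, the 10 of largest ratio between sets in each direction, and examples from each list. The counting of genes as higher or lower was tried on simulated summed counts with planted changes and no variation between cells. The other steps were not simulated. Doublets were not removed. Promoter sequences are from RefSeq on GRCm38.p6, and Comp, Rhox8 and Ereg had no entry. Some genes are not reported here.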

Additional observations from a re-analysis of the deposited data

How the results depend on the processing

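No paired analysis was possible because each time point had 1 library. The number of Tnfsf11/Comp cells was 444 with Comp at 2 or more in place of 1, and within 1.5 times the 799 under the other 5 choices of threshold, depth or cluster. By set, *Comp* at 2 or more left 338, 104 and 2 cells, and set 3 held 33 with any *Comp* UMI. Against the other GCs, without the filter on low levels 78 genes were higher and 351 lower, with a level of at least 1 required 18 and 17, and against all cells with 3 GC markers 72 and 151, with 28 of the 42 and 75 of the 97 among them. With set 2 alone 85 were higher and 162 lower, and with set 1 alone 129 and 203, where fewer conditions had to be met and the filter was applied to that set alone. Of the values of single genes, 996 moved by less than their interval, 90 by more, and 3 turned in direction: *Cyp11a1* in set 1 (0.765-fold) and *Ptgfr* in set 1 (0.431-fold) against all cells with 3 GC markers, and *Flrt3* in set 1 (1.17-fold) in the held-out UMIs. The cause of these turns was not tested. A change of filter or the removal of a set cannot alter a gene's ratio within a set. Those choices were among the settings tallied, so part of the 996 was fixed in advance. Between the sets, 1131 genes were higher and 3972 lower without the filter and 199 and 127 with a level of at least 1, as other numbers of genes entered, and 489 were lower when ratios were divided by their median. Beside the GCs with *Lhcgr*, the count of lower genes was 13 after thinning and 11 with totals that left out the 50 most abundant genes, and with Tnfsf11/Comp cells limited to those with *Lhcgr* and without *Amh* 4 genes were higher and 17 lower. The held-out UMIs, the division by the median, the removal of shared barcodes and the alternatives for the *Lhcgr* and *Amh* comparisons were chosen after seeing the data. Low genes rest on few UMIs per cell, and set 3 on 14 cells.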
